A study of Mus musculus with 19 samples.

Results

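Transcripts of the proteasome, the protease complex that degrades ubiquitin-tagged proteins, were followed across mouse liver tumors. The members were all genes whose symbol begins with PSMA to PSMG followed by a number and whose value reached 1 in 3 libraries or more. Of 19486 gene rows in the table, 49 had such a symbol and all 49 passed that bound, among 13253 genes that passed it in all. They comprised 19 core genes (PSMA and PSMB), 6 ATPase genes (PSMC), 14 lid and base genes (PSMD, which include 3 assembly chaperones), 4 activator genes (PSME) and 6 others. Those 6 were the inhibitor Psmf1, the assembly chaperones Psmg1 to Psmg4, and Psmc3ip, which matches by its letters but is a meiotic recombination gene and no proteasome subunit. Psma8, whose product replaces an alpha subunit in testis, and Psmb11, whose product belongs to thymic epithelium, also matched.

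The proteasome's core particle is a barrel of alpha rings, which gate the entrance, around beta rings, which hold the proteolytic sites. A regulatory particle caps it: ATPases unfold the substrate, base subunits dock ubiquitin and its carriers, and the lid removes the ubiquitin chain. Cells exposed to interferon swap the 3 catalytic beta subunits for immunosubunits that favour peptides for class I presentation, and mammalian cells keep subunit genes at matched levels partly through the transcription factor Nfe2l1.

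RNA was sequenced from 19 liver tumor samples of mice, all labelled hepatocellular carcinoma (HCC). MYC_Recur, MYC_Twist1_OFF and MYC_OFF held 3 libraries each, and MYC_Twist1_HCC and MYC_HCC held 5 each. The labels give no allele, driver promoter, treatment, time, age or strain behind these names, so OFF, Recur and Twist1 are used here only as group names, and what all the groups share beyond the tissue is likewise not stated. The labels mark all 10 HCC libraries as a re-analysis of earlier samples and carry no such mark for the 9 remaining ones, so this mark and the group cannot be told apart where an HCC group is set against any of the other 3. Whether each sample came from its own animal is not stated, and p-values therefore measure only the spread between these samples, which may be technical.

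Values are the expression values the authors deposited, which are not counts and whose unit is not given, so the depth of each library is unknown and levels are not compared between genes. They summed to 507868 to 690310 per library. Myc, the oncogene in the group names, stood at 152 to 159 in MYC_Recur, 32.5 to 45.7 in MYC_Twist1_OFF and 33.9 to 59.8 in MYC_OFF, against 102 to 153 in MYC_Twist1_HCC and 129 to 180.5 in MYC_HCC. Twist1 did not exceed 0.27 in any library, so the table does not show the difference that the Twist1 labels name. Hepatocyte markers were present in every group: their 12 genes summed to 5409 to 7324 in MYC_Recur, 1464 to 1618 in MYC_Twist1_OFF and 1403 to 2252 in MYC_OFF, against 3850 to 6093 in MYC_Twist1_HCC and 6887 to 13770 in MYC_HCC. MYC_HCC 4 and 5 stood apart from the other MYC_HCC libraries in Alb, the hepatocyte albumin gene, at 4480 and 2671 against 1449.8 to 1984, so counts are also given without those 2.

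In the values as deposited, most proteasome transcripts were lower in MYC_OFF than in MYC_HCC, and rescaling reduced their number, as given below. Differences were tested with limma on log2(value + 1) across all 13253 genes and called at a Benjamini-Hochberg adjusted p under 0.05. Of the 49 members, 31 were lower and 8 were higher, while 39.4% of all genes tested were called lower and 18.9% higher. The 31 include Psmb9 and the 8 include Psma8, which passed the bound only through groups where they are high. Their calls are a description and no test. Psmc3ip, no proteasome gene, is also among the 31. The median log2 fold change was -0.96 over the members and -0.38 over all genes. All MYC_OFF libraries lay below all MYC_HCC libraries for 28 members and above them for 6, beside 34.4% and 15.7% of all genes. Psmb9 and Psmb11, which also passed only where it is high, are among the 28, and Psma8 is among the 6. Without MYC_HCC 4 and 5 the called counts were 31 lower and 7 higher. In bulk tumor RNA, fewer cells of a type and less RNA per cell cannot be told apart. Hepatocyte markers and Myc moved in the same comparison, as given above, and their part in the result was not tested.

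The second comparison of this kind, MYC_Twist1_OFF against MYC_Twist1_HCC, shares no library with the first. There 26 members were lower and 1 was higher, beside 33.5% and 13.1% of all genes, with a median log2 fold change of -0.62 against -0.32 for all genes. Library values lay apart for 25 lower and 1 higher member, beside 37.1% and 13.4% of all genes. The 26 include Psmb11, whose call is a description, and Psmc3ip. The 25 include these and Psmb9. The lists of lower members shared 25 genes, which is 80.65% of the 31 from the MYC groups and 96.15% of the 26 from the Twist1-labelled groups. The same overlap over all genes was not counted, so whether it is particular to the members is not known. Both comparisons also set libraries without the re-analysis mark against libraries with it. Psmb11, the remaining gene of the second list, was also below MYC_HCC in MYC_OFF without overlap but not called there (log2 fold change -0.52, adjusted p = 0.0682), and the difference between both comparisons, tested as an interaction, was not called for it (adjusted p = 0.732). The sole higher gene, Psme2, was also higher in MYC_OFF. No member was called in opposite directions.

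MYC_Recur, set against MYC_OFF, had 30 members higher and 5 lower, beside 37.5% and 12.0% of all genes. Its median log2 fold change was 1.08 over the members and 0.45 over all genes. Library values lay apart for 31 higher and 6 lower members, beside 41.2% and 12.2% of all genes. Psmb11, a description here too, is among the 30 and the 31, and Psmb9 and Psmc3ip are among the 31. Since this comparison and the first share the MYC_OFF libraries, the values of both are given side by side and are not counted as separate support. Neither group carries the re-analysis mark.

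The scale of the values moves these counts. Rescaling the libraries by the median of ratios, a trimmed mean of log ratios or the upper quartile brought the median of all genes in these 3 comparisons to between -0.08 and 0.11. Of all calls for MYC_OFF against MYC_HCC, 46.8% to 54.5% were then higher, where 32.5% were as deposited. For MYC_Twist1_OFF against MYC_Twist1_HCC that share lay between 45.2% and 53.9%, where it was 28.0% as deposited, and for MYC_Recur against MYC_OFF between 47.7% and 52.7%, where it was 75.8%. Of the members, 22 of the 31 lower and all 8 higher calls for MYC_OFF against MYC_HCC held under all 3 rescalings. For MYC_Twist1_OFF against MYC_Twist1_HCC, 20 of 26 lower calls and the 1 higher call held, and in MYC_Recur against MYC_OFF 20 of 30 higher and all 5 lower calls did. The members' median minus that of all genes was -0.50 to -0.46 under the rescalings and -0.58 as deposited for MYC_OFF against MYC_HCC. It was -0.28 to -0.25 and -0.29 for MYC_Twist1_OFF against MYC_Twist1_HCC, and 0.52 to 0.55 and 0.63 for MYC_Recur against MYC_OFF.

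**Figure D1:**
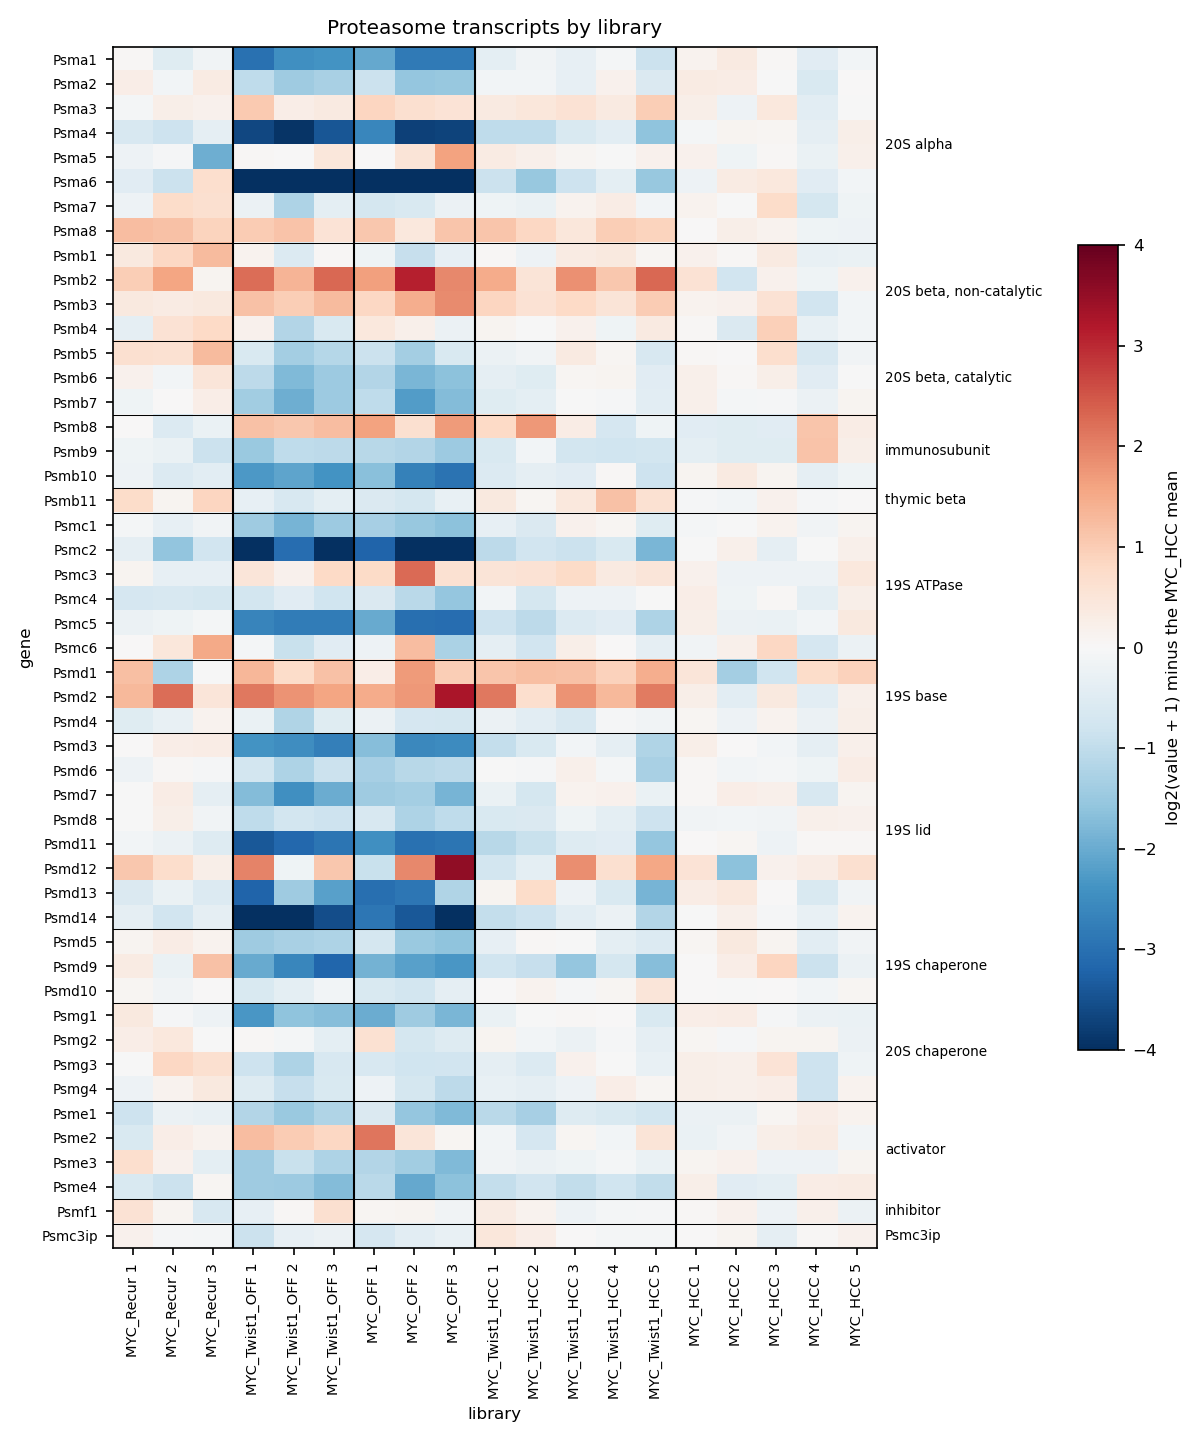
Log2(value + 1) of the 49 members in each of 19 libraries, minus the MYC_HCC mean of the same gene; rows are grouped by role in the complex, columns by group, and the color scale ends at -4 and 4, so values beyond it take the end color. Rows such as Psma6, Psmc2 and Psmd14 are blue in all MYC_OFF and MYC_Twist1_OFF libraries, and Psmb2 and Psmd2 are red there.

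**Figure D2:**
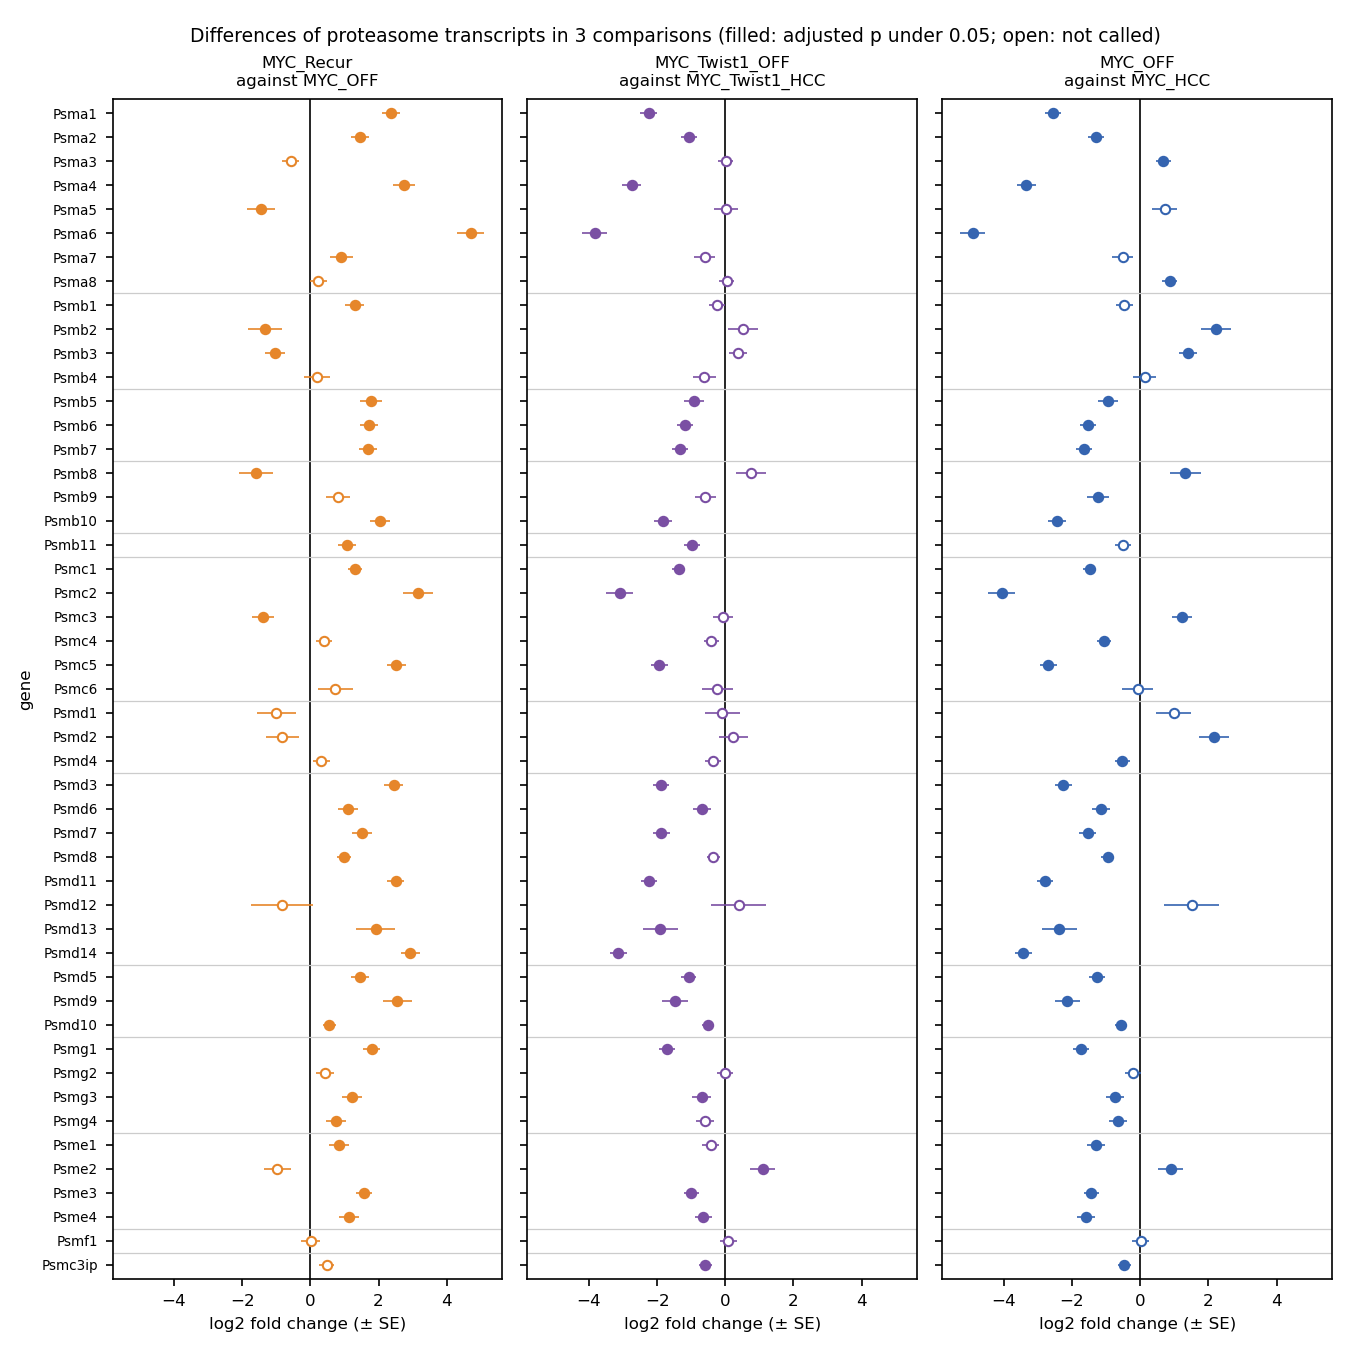
Log2 fold change with its standard error for each member (down the page, by role) in 3 comparisons; filled points have an adjusted p under 0.05 and open points do not. Lower calls predominate in MYC_Twist1_OFF against MYC_Twist1_HCC (26 of 49) and MYC_OFF against MYC_HCC (31 of 49), and higher calls in MYC_Recur against MYC_OFF (30 of 49).

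The alpha ring, the gate of the core particle, did not move as a unit. Against MYC_HCC, MYC_OFF had 4 of 8 alpha genes lower (Psma1, Psma2, Psma4 and Psma6) and 2 higher (Psma3 and Psma8), with Psma5 and Psma7 not called. Of all genes tested, 39.4% were lower and 18.9% higher there, and the Psma8 call is a description, as given below. The lowest fold change of any member belonged to Psma6 (chr12:55384222-55418459 in the GRCm38 assembly). Its values were 129, 98.7 and 284 in MYC_Recur, 4.02, 8.08 and 4.35 in MYC_Twist1_OFF and 8.96, 3.6 and 3.6 in MYC_OFF. Psma6 stood at 98.8, 62.1, 100.3, 137 and 61.8 in MYC_Twist1_HCC and 157, 227, 239, 129.7 and 167 in MYC_HCC. No library of either OFF group came near those of the other 3 groups. Psma6 fell in MYC_OFF relative to MYC_HCC (log2 fold change -4.92, SE 0.37, adjusted p = 5.45e-08) and in MYC_Twist1_OFF relative to MYC_Twist1_HCC (log2 fold change -3.83, SE 0.37, adjusted p = 9.24e-07), and rose in MYC_Recur relative to MYC_OFF (log2 fold change 4.70, SE 0.41, adjusted p = 4.88e-07).

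Psma4 (chr9:54950781-54958034), another alpha subunit, read 249, 219 and 302 in MYC_Recur, 30.1, 24.6 and 34.9 in MYC_Twist1_OFF and 62.8, 28.2 and 28.7 in MYC_OFF. It read 193, 193, 255, 286 and 126 in MYC_Twist1_HCC and 364, 422, 411, 305 and 454 in MYC_HCC. Its OFF libraries lay below every library of the other groups, and MYC_Twist1_HCC lay below MYC_HCC. The differences were called for MYC_OFF against MYC_HCC (log2 fold change -3.35, SE 0.28, adjusted p = 9.38e-08), MYC_Twist1_OFF against MYC_Twist1_HCC (log2 fold change -2.74, SE 0.28, adjusted p = 1.6e-06) and MYC_Recur against MYC_OFF (log2 fold change 2.75, SE 0.31, adjusted p = 3.14e-06). Psma1 gave the same 3 calls, with log2 fold changes of -2.56, -2.25 and 2.36, and so did Psma2, with -1.30, -1.06 and 1.46. Psma7, a further alpha subunit, was at 270.3 to 512 in MYC_Recur, 131 to 265 in MYC_Twist1_OFF and 190.4 to 259.8 in MYC_OFF, against 257 to 381 in MYC_Twist1_HCC and 190.0 to 518 in MYC_HCC, and its only call, higher in MYC_Recur than in MYC_OFF (log2 fold change 0.90, SE 0.34, adjusted p = 0.0345), ended under all 3 rescalings (0.22 to 0.33); left out singly, MYC_OFF 1, MYC_OFF 2, MYC_Recur 2 and MYC_Recur 3 each ended the call (log2 fold change 0.73 to 0.86, adjusted p = 0.0825 to 0.125).

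Psma3, which is also an alpha subunit, went the other way, at 400.4, 345 and 325 in MYC_OFF against 258, 193, 294, 163 and 220.5 in MYC_HCC, with no overlap between the groups (log2 fold change 0.68, SE 0.23, adjusted p = 0.0163). This call was lost without MYC_OFF 1 (0.60, adjusted p = 0.0603). Its MYC_Twist1_OFF libraries, at 455, 267 and 286, overlapped those of MYC_Twist1_HCC, at 283, 305, 333, 285 and 439 (log2 fold change 0.01, SE 0.23, adjusted p = 0.98), and the interaction was not called (adjusted p = 0.64). Psma5 stood at 89.8, 99.7 and 26.2 in MYC_Recur and 106, 149 and 315 in MYC_OFF, again without overlap, and was lower in MYC_Recur (log2 fold change -1.45, SE 0.40, adjusted p = 0.00627). Both genes share sequence with others: of the 50-base stretches of their transcripts, 22.0% for Psma3 and 54.5% for Psma5 also occur in transcripts of other genes, chiefly processed pseudogenes, and so do 25.6% for Psma4. Psma6 has none.

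Psma8, low throughout, held 1.96, 1.82 and 1.32 in MYC_Recur, 1.53, 1.75 and 0.82 in MYC_Twist1_OFF and 1.65, 0.67 and 1.71 in MYC_OFF, while MYC_Twist1_HCC held 1.72, 1.21, 0.7, 1.5 and 1.33 and MYC_HCC 0.27, 0.47, 0.37, 0.11 and 0.09. MYC_HCC was below all other groups, with no overlap. Psma8 reached 1 in 11 libraries, none of them of MYC_HCC, so it passed the bound only through the other groups, and its calls against MYC_HCC are a description. It was called higher against MYC_HCC in MYC_Recur (log2 fold change 1.10, SE 0.23, adjusted p = 0.00469), MYC_OFF (log2 fold change 0.87, SE 0.23, adjusted p = 0.00312) and MYC_Twist1_HCC (log2 fold change 0.85, SE 0.20, adjusted p = 0.0155). At these values the added 1 in the logarithm makes the fold change smaller than the ratio of the values. The MYC_Twist1_HCC call was lost without MYC_Twist1_HCC 1 (0.79, adjusted p = 0.0506).

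Among the beta subunits that carry no proteolytic site, 2 of 4 were higher in MYC_OFF than in MYC_HCC (Psmb2 and Psmb3) and none was lower. The shares of all genes were 18.9% higher and 39.4% lower. Psmb2 (chr4:126677637-126709715) had 190.5, 287 and 102 in MYC_Recur, 449.6, 246 and 474 in MYC_Twist1_OFF and 298, 836 and 362 in MYC_OFF. It had 271, 136, 342, 201 and 474 in MYC_Twist1_HCC and 143, 55.8, 108, 83.5 and 108 in MYC_HCC. All MYC_OFF libraries exceeded all MYC_HCC and all MYC_Recur libraries, but 1 of them, MYC_OFF 2, was well above the other two. The test gave log2 fold change 2.22, SE 0.44, adjusted p = 0.000307 for MYC_OFF against MYC_HCC and log2 fold change -1.33, SE 0.49, adjusted p = 0.0301 for MYC_Recur against MYC_OFF. The second of these calls was lost without MYC_OFF 2 (-0.88, adjusted p = 0.165) or without MYC_Recur 1 (-1.38, adjusted p = 0.0559) or without MYC_Recur 3 (-0.94, adjusted p = 0.151).

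Psmb3 (chr11:97703434-97713500) had 194, 186 and 193 in MYC_Recur, 335, 293 and 356 in MYC_Twist1_OFF, 267, 409 and 550.2 in MYC_OFF, 269, 223, 259, 214 and 299 in MYC_Twist1_HCC and 166, 168, 222, 86.2 and 137 in MYC_HCC. It rose in MYC_OFF over MYC_HCC (log2 fold change 1.39, SE 0.26, adjusted p = 0.000222) and was lower in MYC_Recur than in MYC_OFF (log2 fold change -1.03, SE 0.29, adjusted p = 0.00739), without overlap in either case. Copies of 55.8% of its 50-base stretches lie in other genes, whereas Psmb2 has none. Neither gene was called between MYC_Twist1_OFF and MYC_Twist1_HCC (adjusted p = 0.337 for Psmb2 and 0.242 for Psmb3). The difference between the 2 OFF comparisons, tested as an interaction, was not called for either (log2 fold change -1.70, SE 0.62, adjusted p = 0.54 for Psmb2 and log2 fold change -1.01, SE 0.37, adjusted p = 0.544 for Psmb3). Psmb1, also in this group, was higher in MYC_Recur than in MYC_OFF (log2 fold change 1.30, SE 0.28, adjusted p = 0.00084), a call that ended under all 3 rescalings (log2 fold change 0.62 to 0.73), and Psmb4 was not called in any comparison. Psmb11, the thymic subunit, had 1.71, 0.73 and 1.9 in MYC_Recur, 0.29, 0.04 and 0.22 in MYC_Twist1_OFF, 0.09, 0 and 0.32 in MYC_OFF, 1.11, 0.71, 1.17, 2.63 and 1.44 in MYC_Twist1_HCC and 0.55, 0.51, 0.82, 0.57 and 0.64 in MYC_HCC. It reached 1 in 6 libraries, 4 of MYC_Twist1_HCC and 2 of MYC_Recur, and so passed the bound only through groups where it is high. Its place among the called members (lower in MYC_Twist1_OFF than in MYC_Twist1_HCC, higher in MYC_Recur than in MYC_OFF) is therefore a description and no test.

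The 3 catalytic subunits moved together. Psmb5, which carries the chymotrypsin-like site, had 162, 159 and 253 in MYC_Recur, 67.2, 40.2 and 46.7 in MYC_Twist1_OFF and 56.9, 39.9 and 68.2 in MYC_OFF. Psmb5 values were 87.9, 95, 134, 109 and 65.8 in MYC_Twist1_HCC and 108, 105, 167, 66.8 and 94.5 in MYC_HCC. MYC_OFF overlapped MYC_HCC at the edge, since MYC_OFF 3 and MYC_HCC 4 were almost equal, but stood clear of MYC_Recur. Psmb5 was lower in MYC_OFF than in MYC_HCC (log2 fold change -0.94, SE 0.29, adjusted p = 0.01), a call lost without MYC_OFF 2 (-0.73, adjusted p = 0.0684) and under all 3 rescalings (log2 fold change -0.51 to -0.31). It was also lower in MYC_Twist1_OFF than in MYC_Twist1_HCC (log2 fold change -0.92, SE 0.29, adjusted p = 0.0152), which likewise ended under all 3 rescalings (-0.58 to -0.42) and without MYC_Twist1_OFF 2 (-0.76, adjusted p = 0.0772). The rise in MYC_Recur over MYC_OFF (log2 fold change 1.78, SE 0.32, adjusted p = 0.000214) was kept. Other genes hold 57.1% of its 50-base stretches.

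Psmb6, the caspase-like site, averaged 157 ± 32.6 in MYC_Recur, 51.3 ± 13.2 in MYC_Twist1_OFF and 46.9 ± 11.7 in MYC_OFF (SD, n = 3 each), against 118 ± 24.9 in MYC_Twist1_HCC and 137 ± 23.9 in MYC_HCC (SD, n = 5 each). For Psmb7, the trypsin-like site, the means were 178 ± 27.4 in MYC_Recur, 57.1 ± 11.8 in MYC_Twist1_OFF and 57.2 ± 25.1 in MYC_OFF, against 145 ± 22.7 in MYC_Twist1_HCC and 173 ± 20.4 in MYC_HCC. For both genes MYC_OFF overlapped neither MYC_HCC nor MYC_Recur, and MYC_Twist1_OFF did not overlap MYC_Twist1_HCC. Psmb6 had a log2 fold change of -1.54 in MYC_OFF relative to MYC_HCC (adjusted p = 2.4e-05). It was -1.19 in MYC_Twist1_OFF relative to MYC_Twist1_HCC (adjusted p = 0.000493) and 1.72 in MYC_Recur relative to MYC_OFF (adjusted p = 3.67e-05). Psmb7 gave -1.66, -1.33 and 1.70 in the same comparisons (adjusted p = 1.21e-05, 0.000208 and 4.82e-05).

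The 3 immunosubunits split. Psmb8, which takes the place of Psmb5, was 4.39, 2.61 and 3.38 in MYC_Recur, 11, 10.3 and 11.3 in MYC_Twist1_OFF and 15.2, 7.35 and 16.3 in MYC_OFF. Psmb8 came to 8.28, 16.5, 5.58, 2.33 and 3.74 in MYC_Twist1_HCC and 2.87, 2.81, 2.88, 10.4 and 5.45 in MYC_HCC. MYC_HCC 4 lay within the range of MYC_OFF, and the other MYC_HCC libraries lay below it. Psmb8 was higher in MYC_OFF than in MYC_HCC (log2 fold change 1.32, SE 0.45, adjusted p = 0.0172), but not without MYC_OFF 1 (1.18, adjusted p = 0.0669) or without MYC_OFF 3 (1.13, adjusted p = 0.0747). It was lower in MYC_Recur than in MYC_OFF, with no overlap (log2 fold change -1.59, SE 0.50, adjusted p = 0.0136), a call lost without MYC_OFF 3 (-1.40, adjusted p = 0.0525). No difference was called between MYC_Twist1_OFF and MYC_Twist1_HCC (log2 fold change 0.76, SE 0.45, adjusted p = 0.172), nor was the interaction called (adjusted p = 0.842).

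Psmb10, the counterpart of Psmb7, was instead lower in both OFF groups, at 94.1, 73.2 and 80.3 in MYC_Recur, 21.2, 24.5 and 19.7 in MYC_Twist1_OFF and 33.6, 15.7 and 13 in MYC_OFF. It held 73.6, 83.6, 77.9, 112 and 60 in MYC_Twist1_HCC and 116, 138, 116, 83.6 and 95.9 in MYC_HCC. Both OFF groups lay below all libraries of the others. The tests gave log2 fold change -2.44, SE 0.26, adjusted p = 6.39e-07 for MYC_OFF against MYC_HCC, log2 fold change -1.83, SE 0.26, adjusted p = 2.89e-05 for MYC_Twist1_OFF against MYC_Twist1_HCC and log2 fold change 2.05, SE 0.29, adjusted p = 2.11e-05 for MYC_Recur against MYC_OFF. Psmb9, the counterpart of Psmb6, was near the lower end of the table, at 0.74, 0.69 and 0.39 in MYC_OFF against 1.86, 1.72, 1.69, 7.27 and 3.44 in MYC_HCC, and was lower without overlap (log2 fold change -1.24, SE 0.32, adjusted p = 0.00297). It reached 1 in 13 libraries, none of them of an OFF group, and so passed the bound only through groups where it is high. Its place among the members called lower in MYC_OFF is therefore a description and no test. Psmb9 was not called in MYC_Twist1_OFF against MYC_Twist1_HCC (log2 fold change -0.58, SE 0.32, adjusted p = 0.141), and its interaction was not called (adjusted p = 0.73). Psmb8 (chr17:34198195-34201454) and Psmb9 (chr17:34182030-34187330) lie near each other. Since the Psmb9 call is a description, their directions in MYC_OFF are not compared.

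Markers of leukocytes, which express immunosubunits, were counted beside these results. All 19 were in the table, and they summed to 451.2 to 653.4 in MYC_Recur, 256.6 to 803.2 in MYC_Twist1_OFF and 422.9 to 531 in MYC_OFF, against 319.4 to 535.5 in MYC_Twist1_HCC and 234.9 to 500.2 in MYC_HCC. The B cell marker Ms4a1 was listed at 0 in every MYC_OFF and MYC_Recur library, and the fibroblast marker Dcn in every MYC_OFF and MYC_Twist1_OFF library. Ptprc, the pan-leukocyte marker, was 4.4, 5.22 and 4.64 in MYC_Recur, 0.45, 0.75 and 0.31 in MYC_Twist1_OFF and 0.5, 0.13 and 0.85 in MYC_OFF, against 1.64 to 6.7 in MYC_Twist1_HCC and 3.08 to 5.29 in MYC_HCC. Not every marker of the list fell with it. Lyz2 was 327.85 to 349.93 in MYC_OFF against 87.88 to 366.88 in MYC_HCC, and Cd68 was 41.76 to 157.1 against 34.46 to 119.02. Endothelial markers, 7 in the table, summed to 5.17 to 10.5 in MYC_Recur, 65.5 to 113.9 in MYC_Twist1_OFF and 32.3 to 88.7 in MYC_OFF, against 9.28 to 20.9 in MYC_Twist1_HCC and 11.2 to 82.7 in MYC_HCC. The 9 fibroblast and stellate markers summed to 29.7 to 89.6 in MYC_Recur, 28.5 to 34.9 in MYC_Twist1_OFF and 18.8 to 46.7 in MYC_OFF, against 18.6 to 24.0 in MYC_Twist1_HCC and 28.3 to 132.4 in MYC_HCC. Of the markers tested between MYC_OFF and MYC_HCC, 2 of 13 leukocyte genes were higher and 4 lower, and 9 of 12 hepatocyte genes were lower and none higher. Beside these, 18.9% of all genes were higher and 39.4% lower. The part of the markers in the results was not tested.

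**Figure D3:**
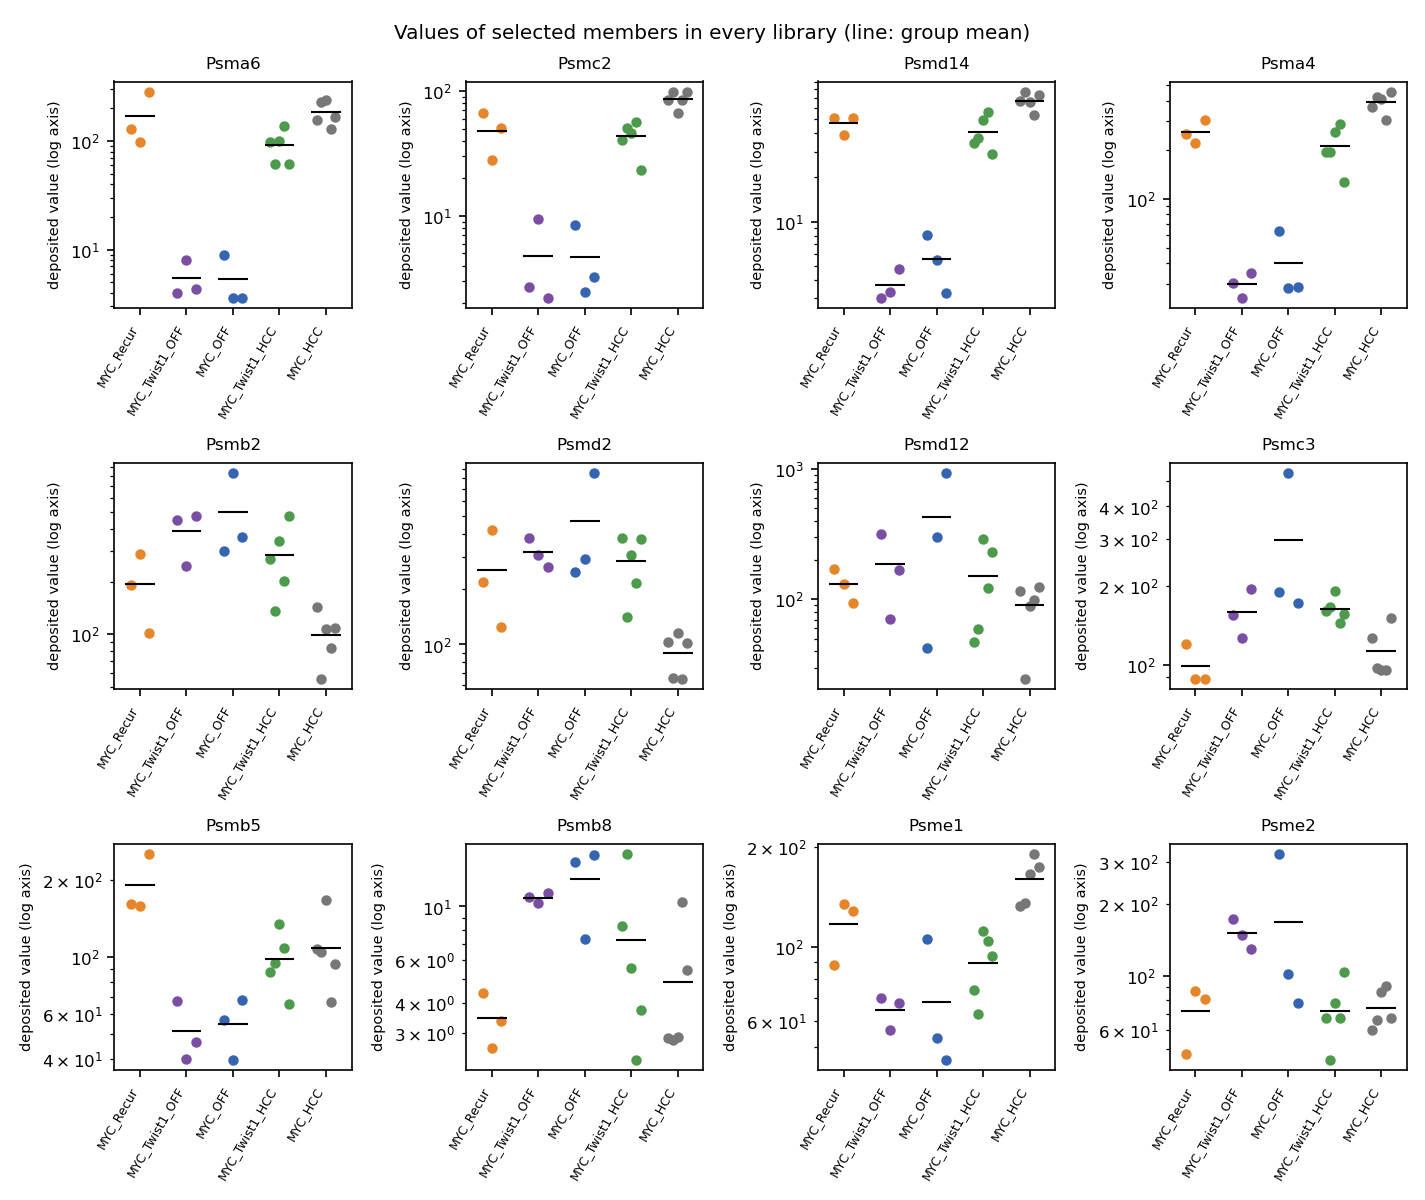
Deposited value (log axis, a separate scale for each panel) of 12 members in every library of the 5 groups; points are libraries and lines are group means. Psma6, Psmc2, Psmd14 and Psma4 are lowest in both OFF groups, while the MYC_OFF libraries of Psmb2 and Psmd2 lie above all MYC_HCC libraries and those of Psmd12 run from 42 to 936.

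The ATPases of the regulatory particle also moved unequally. Of 6, MYC_OFF had 4 lower (Psmc1, Psmc2, Psmc4 and Psmc5), 1 higher (Psmc3) and Psmc6 not called, against MYC_HCC. Over all genes, 39.4% were lower and 18.9% higher in that comparison. Psmc2 (chr5:21785275-21803787) stood at 66.7, 27.8 and 50 in MYC_Recur, 2.7, 9.38 and 2.21 in MYC_Twist1_OFF and 8.38, 2.44 and 3.24 in MYC_OFF. It reached 40.8, 50, 46.3, 55.9 and 23.5 in MYC_Twist1_HCC and 84.1, 97.8, 66.7, 84.4 and 98.4 in MYC_HCC. Both OFF groups lay below all other libraries. Its fold changes were called for MYC_OFF against MYC_HCC (log2 fold change -4.07, SE 0.39, adjusted p = 2.8e-07), MYC_Twist1_OFF against MYC_Twist1_HCC (log2 fold change -3.10, SE 0.39, adjusted p = 1.1e-05) and MYC_Recur against MYC_OFF (log2 fold change 3.17, SE 0.44, adjusted p = 1.75e-05).

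Psmc5 gave 84.2, 88.2 and 95.6 in MYC_Recur, 15.2, 13.4 and 13.6 in MYC_Twist1_OFF, 24.1, 11.5 and 11.2 in MYC_OFF, 55.7, 48.5, 68.4, 73.1 and 42.3 in MYC_Twist1_HCC and 117, 84.7, 83.7, 92.3 and 133 in MYC_HCC. Its OFF libraries lay below all others, and its tests gave log2 fold change -2.69, SE 0.24, adjusted p = 1.61e-07 for MYC_OFF against MYC_HCC, log2 fold change -1.93, SE 0.24, adjusted p = 9.88e-06 for MYC_Twist1_OFF against MYC_Twist1_HCC and log2 fold change 2.52, SE 0.27, adjusted p = 2.18e-06 for MYC_Recur against MYC_OFF. Psmc3 (chr2:91054016-91059438), an ATPase of the same ring, had 120.2, 88.3 and 88.5 in MYC_Recur, 155, 126 and 194 in MYC_Twist1_OFF and 189, 537 and 171 in MYC_OFF. Psmc3 had 160.2, 166, 191, 144 and 156 in MYC_Twist1_HCC and 127, 97.4, 95.8, 95.6 and 150.2 in MYC_HCC. MYC_OFF lay above both MYC_Recur and MYC_HCC, with MYC_OFF 2 far above the rest. It was higher in MYC_OFF than in MYC_HCC (log2 fold change 1.22, SE 0.30, adjusted p = 0.00193) and fell in MYC_Recur relative to MYC_OFF (log2 fold change -1.40, SE 0.33, adjusted p = 0.00202), but MYC_Twist1_OFF and MYC_Twist1_HCC did not differ beyond their spread (log2 fold change -0.06, SE 0.30, adjusted p = 0.881). The interaction for Psmc3 was not called (log2 fold change -1.28, SE 0.42, adjusted p = 0.482). Of the other ATPases, Psmc1 gave log2 fold changes of -1.49 for MYC_OFF, -1.36 for MYC_Twist1_OFF and 1.31 for MYC_Recur in these comparisons, all called. Psmc4 was lower in MYC_OFF than in MYC_HCC (log2 fold change -1.06, SE 0.22, adjusted p = 0.000466), a call that ended under the upper quartile rescaling (log2 fold change -0.44) and was kept under the other two, and Psmc6 was called in none (-0.07, -0.24 and 0.73).

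The lid, which strips and recycles ubiquitin, had 7 of 8 genes lower and none higher in MYC_OFF than in MYC_HCC. For MYC_Twist1_OFF against MYC_Twist1_HCC 6 of 8 were lower and none higher, and for MYC_Recur against MYC_OFF 7 of 8 were higher and none lower. Over all genes the shares were 39.4% lower and 18.9% higher, 33.5% lower and 13.1% higher, and 37.5% higher and 12.0% lower. Psmd14 (chr2:61711694-61800376), the deubiquitinating enzyme of the lid, stood at 51.2, 39.1 and 51.1 in MYC_Recur, 3.02, 3.3 and 4.73 in MYC_Twist1_OFF and 8.09, 5.44 and 3.23 in MYC_OFF. Its values were 34.2, 37.2, 49.2, 56 and 28.8 in MYC_Twist1_HCC and 66.1, 76.8, 65, 53.4 and 73.5 in MYC_HCC. Every OFF library was below every other library. The tests gave log2 fold change -3.42, SE 0.25, adjusted p = 4.84e-08 for MYC_OFF against MYC_HCC, log2 fold change -3.15, SE 0.25, adjusted p = 2.52e-07 for MYC_Twist1_OFF against MYC_Twist1_HCC and log2 fold change 2.93, SE 0.28, adjusted p = 9.64e-07 for MYC_Recur against MYC_OFF.

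Psmd11, a scaffold subunit of the lid, read 51.2, 47.1 and 38.6 in MYC_Recur, 4.43, 5.35 and 6.48 in MYC_Twist1_OFF and 9.34, 6.06 and 6.42 in MYC_OFF, against 24.9, 29.2, 38.1, 40.1 and 18.4 in MYC_Twist1_HCC and 56.3, 58.7, 47.5, 57.2 and 57.7 in MYC_HCC. The OFF libraries again lay below all others (log2 fold change -2.79, SE 0.23, adjusted p = 7.74e-08 for MYC_OFF against MYC_HCC). The log2 fold changes of Psmd3, for MYC_OFF against MYC_HCC, MYC_Twist1_OFF against MYC_Twist1_HCC and MYC_Recur against MYC_OFF, were -2.26, -1.89 and 2.45. Psmd7, the partner of Psmd14, gave -1.55, -1.88 and 1.52, and Psmd13 gave -2.37, -1.90 and 1.91, all called. Of these, the Psmd13 call for MYC_Twist1_OFF was lost without MYC_Twist1_OFF 1 (-1.43, adjusted p = 0.0507), and its call for MYC_Recur against MYC_OFF under all 3 rescalings (1.27 to 1.36). Psmd6 and Psmd8 were lower in MYC_OFF (-1.16 and -0.96) and higher in MYC_Recur (1.09 and 0.98), calls that each ended under at least 2 of 3 rescalings (log2 fold changes -0.74 to -0.34 for MYC_OFF and 0.31 to 0.52 for MYC_Recur). Psmd6 was also lower in MYC_Twist1_OFF than in MYC_Twist1_HCC (log2 fold change -0.69, SE 0.26, adjusted p = 0.0372), but left out singly, MYC_Twist1_HCC 1, MYC_Twist1_HCC 2, MYC_Twist1_HCC 3, MYC_Twist1_HCC 4, MYC_Twist1_OFF 1, MYC_Twist1_OFF 2 and MYC_Twist1_OFF 3 each ended the call (log2 fold change -0.79 to -0.54, adjusted p = 0.051 to 0.158).

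The eighth lid gene, Psmd12 (chr11:107479528-107498036), had a coefficient of variation of 108% in MYC_OFF, above that of every other member with a mean over 1 there. Its values were 169.6, 131 and 94.1 in MYC_Recur, 319, 70.2 and 169 in MYC_Twist1_OFF and 42, 300.4 and 936 in MYC_OFF. Psmd12 ranged over 47.3, 59.8, 291, 123 and 232 in MYC_Twist1_HCC and 117, 24.6, 88.7, 98 and 124 in MYC_HCC. The 3 MYC_OFF libraries differed among themselves by more than MYC_OFF differed from MYC_HCC, and no comparison was called (log2 fold change 1.52, SE 0.81, adjusted p = 0.115 for MYC_OFF against MYC_HCC). No 50-base stretch of Psmd12 occurs in another gene.

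In the base, the 3 subunits without ATPase activity gave 1 higher, 1 lower and 1 uncalled gene in MYC_OFF against MYC_HCC. Beside them, 18.9% of all genes were higher and 39.4% lower. Psmd2 (chr16:20651122-20663414), the scaffold on which shuttle factors dock, had 219, 419 and 124 in MYC_Recur, 378, 307 and 265 in MYC_Twist1_OFF and 249, 293 and 858 in MYC_OFF. Psmd2 had 379.9, 141, 306, 215 and 375 in MYC_Twist1_HCC and 104, 65.4, 115, 65.1 and 102 in MYC_HCC. MYC_HCC lay below all libraries of the other groups. Psmd2 was higher than in MYC_HCC in MYC_OFF (log2 fold change 2.17, SE 0.43, adjusted p = 0.000327) and in MYC_Twist1_HCC (log2 fold change 1.59, SE 0.37, adjusted p = 0.0173). The second call was lost without MYC_Twist1_HCC 1 (1.46, adjusted p = 0.0535) or without MYC_Twist1_HCC 5 (1.47, adjusted p = 0.053). MYC_Recur, with no overlap with MYC_HCC either, missed the threshold (log2 fold change 1.35, SE 0.43, adjusted p = 0.0501), and MYC_Recur and MYC_OFF overlapped (log2 fold change -0.82, SE 0.48, adjusted p = 0.164). Other genes hold 26.4% of its 50-base stretches. Psmd1, the other scaffold, was not called in any comparison (log2 fold change 0.99, SE 0.51, adjusted p = 0.107 for MYC_OFF against MYC_HCC), and its values in MYC_Recur were 98.9, 17.8 and 41.9. Psmd4, a ubiquitin receptor, was lower in MYC_OFF than in MYC_HCC (log2 fold change -0.53, SE 0.22, adjusted p = 0.0494), and its sign was positive with the upper quartile (0.093) and with the median of ratios (0.027). That call was also lost without MYC_HCC 1 (-0.51, adjusted p = 0.0813) or without MYC_HCC 3 (-0.50, adjusted p = 0.0849) or without MYC_HCC 5 (-0.47, adjusted p = 0.098) or without MYC_OFF 2 (-0.46, adjusted p = 0.146) or without MYC_OFF 3 (-0.45, adjusted p = 0.151).

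The 3 chaperones with PSMD symbols, which assemble the base and leave it, were all lower in both OFF comparisons and all higher in MYC_Recur than in MYC_OFF. Of all genes, 39.4% were lower in MYC_OFF, 33.5% lower in MYC_Twist1_OFF and 37.5% higher in MYC_Recur in the same comparisons. Psmd9 was 25.2, 16.3 and 45.2 in MYC_Recur, 4.14, 2.37 and 1.28 in MYC_Twist1_OFF and 4.59, 3.55 and 3.14 in MYC_OFF, against 10.9, 10, 6.06, 11.8 and 5.3 in MYC_Twist1_HCC and 19.8, 23.7, 36.4, 10.4 and 16.5 in MYC_HCC. Its OFF libraries lay below all others (log2 fold change -2.13, SE 0.38, adjusted p = 0.000122 for MYC_OFF against MYC_HCC and log2 fold change 2.55, SE 0.42, adjusted p = 9.09e-05 for MYC_Recur against MYC_OFF). Psmd5 gave log2 fold changes of -1.27 in MYC_OFF relative to MYC_HCC, -1.07 in MYC_Twist1_OFF relative to MYC_Twist1_HCC and 1.46 in MYC_Recur relative to MYC_OFF. Those of Psmd10 were small (-0.57, -0.51 and 0.55) and all 3 of its calls ended under rescaling, which turned its sign for MYC_Recur against MYC_OFF (-0.069 with the median of ratios) and for MYC_OFF against MYC_HCC (0.0060 with the upper quartile). Psmd10 also lost its call for MYC_Recur against MYC_OFF without MYC_OFF 2 (0.47, adjusted p = 0.0818) or without MYC_Recur 1 (0.51, adjusted p = 0.068), and that for MYC_Twist1_OFF without MYC_Twist1_OFF 1 (-0.39, adjusted p = 0.121) or without MYC_Twist1_OFF 2 (-0.49, adjusted p = 0.058).

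Core assembly chaperones gave 3 of 4 genes lower in MYC_OFF than in MYC_HCC and 3 of 4 higher in MYC_Recur than in MYC_OFF, with Psmg2 not called in either. Those shares were 39.4% and 37.5% over all genes. Psmg1, which with Psmg2 starts the alpha ring, averaged 73.5 ± 16.9 in MYC_Recur, 18.7 ± 4.94 in MYC_Twist1_OFF and 20.4 ± 4.19 in MYC_OFF (SD, n = 3 each), against 62.7 ± 11.4 in MYC_Twist1_HCC and 70.5 ± 13.2 in MYC_HCC (SD, n = 5 each). Its tests gave log2 fold change -1.74, SE 0.23, adjusted p = 5.15e-06 for MYC_OFF against MYC_HCC, log2 fold change -1.71, SE 0.23, adjusted p = 1.63e-05 for MYC_Twist1_OFF against MYC_Twist1_HCC and log2 fold change 1.80, SE 0.26, adjusted p = 2.13e-05 for MYC_Recur against MYC_OFF. Psmg2, its partner, gave -0.20, -0.01 and 0.43 with adjusted p = 0.477, 0.967 and 0.187. Psmg3 and Psmg4, the other pair, were lower in MYC_OFF than in MYC_HCC (-0.73 and -0.65) and higher in MYC_Recur than in MYC_OFF (1.22 and 0.76), but all their calls ended under all 3 rescalings. Psmc3ip, the recombination gene, was lower in MYC_OFF than in MYC_HCC (-0.47) and lower in MYC_Twist1_OFF than in MYC_Twist1_HCC (-0.59), calls that ended under rescaling too. For Psmg3 in MYC_OFF, left out singly, MYC_HCC 1, MYC_HCC 2, MYC_HCC 3, MYC_OFF 2 and MYC_OFF 3 each ended the call (log2 fold change -0.72 to -0.60, adjusted p = 0.0549 to 0.0728). Psmg3 was also called lower in MYC_Twist1_OFF than in MYC_Twist1_HCC, but not under any of the 3 rescalings (log2 fold change -0.37 to -0.21). That call was lost as well without MYC_Twist1_HCC 1, MYC_Twist1_HCC 3, MYC_Twist1_HCC 4, MYC_Twist1_HCC 5, MYC_Twist1_OFF 1 or MYC_Twist1_OFF 2, left out singly. For Psmg4 in MYC_OFF, left out singly, MYC_HCC 1, MYC_HCC 2, MYC_HCC 3, MYC_HCC 5, MYC_OFF 2 and MYC_OFF 3 each ended the call (log2 fold change -0.62 to -0.46, adjusted p = 0.0693 to 0.19). In MYC_Recur, left out singly, MYC_OFF 2, MYC_OFF 3, MYC_Recur 2 and MYC_Recur 3 each ended the call (log2 fold change 0.57 to 0.74, adjusted p = 0.0775 to 0.151) for Psmg4. For Psmc3ip in MYC_OFF, left out singly, MYC_HCC 1, MYC_HCC 2, MYC_HCC 4, MYC_HCC 5, MYC_OFF 1 and MYC_OFF 2 each ended the call (log2 fold change -0.49 to -0.37, adjusted p = 0.0557 to 0.158), and its MYC_Twist1_OFF call was lost without MYC_Twist1_OFF 1 (-0.40, adjusted p = 0.139).

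The activators dock on the core in place of the regulatory particle. Psme1 and Psme2 form 1 ring that interferon induces, and in MYC_OFF against MYC_HCC they were called in opposite directions. Psme1 (chr14:55578494-55581527) had 88.1, 135 and 128 in MYC_Recur, 70, 56.2 and 67.8 in MYC_Twist1_OFF and 105, 53.3 and 45.8 in MYC_OFF, against 74.1, 62.8, 111, 104 and 94.1 in MYC_Twist1_HCC and 133, 136, 166, 190.5 and 174 in MYC_HCC. All MYC_OFF libraries were below all MYC_HCC libraries (log2 fold change -1.30, SE 0.26, adjusted p = 0.000357), whereas MYC_Twist1_OFF and MYC_Twist1_HCC overlapped (log2 fold change -0.43, SE 0.26, adjusted p = 0.178). The interaction for Psme1 was not called (adjusted p = 0.613). Psme2 (chr14:55587440-55591101), its neighbour, had 47.5, 87.2 and 80.5 in MYC_Recur, 174, 149 and 130.1 in MYC_Twist1_OFF and 323, 103 and 77.2 in MYC_OFF, against 67.2, 45, 77.6, 67 and 104 in MYC_Twist1_HCC and 60, 65.9, 86.4, 91.1 and 67 in MYC_HCC. MYC_Twist1_OFF stood above MYC_Twist1_HCC without overlap (log2 fold change 1.10, SE 0.36, adjusted p = 0.0191), and MYC_OFF overlapped MYC_HCC (log2 fold change 0.90, SE 0.36, adjusted p = 0.0405). The MYC_Twist1_OFF call was lost without MYC_Twist1_OFF 1 (0.99, adjusted p = 0.0772), and the MYC_OFF call without MYC_HCC 1 (0.83, adjusted p = 0.0775) or without MYC_HCC 2 (0.86, adjusted p = 0.0688) or without MYC_HCC 5 (0.87, adjusted p = 0.0675) or without MYC_OFF 1 (0.28, adjusted p = 0.433).

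Psme2 shares 59.3% of its 50-base stretches with other genes, among them its copy Psme2b, and Psme1 shares 14.1%, so these values are uncertain. Psme3, the activator of the nucleus, averaged 108 ± 38.9 in MYC_Recur, 41.1 ± 8.3 in MYC_Twist1_OFF and 34.3 ± 6.89 in MYC_OFF (SD, n = 3 each), against 82 ± 4.45 in MYC_Twist1_HCC and 93.7 ± 11.9 in MYC_HCC (SD, n = 5 each). Psme3 fell in MYC_OFF relative to MYC_HCC (log2 fold change -1.44, SE 0.21, adjusted p = 2.14e-05), fell in MYC_Twist1_OFF relative to MYC_Twist1_HCC (log2 fold change -0.99, SE 0.21, adjusted p = 0.00114) and rose in MYC_Recur relative to MYC_OFF (log2 fold change 1.58, SE 0.24, adjusted p = 3.92e-05). Psme4, a single-chain activator, was lower in MYC_OFF than in MYC_HCC (log2 fold change -1.60, SE 0.26, adjusted p = 4.71e-05). For MYC_Twist1_OFF against MYC_Twist1_HCC Psme4 was lower too (log2 fold change -0.64, SE 0.26, adjusted p = 0.049), but left out singly, MYC_Twist1_HCC 1, MYC_Twist1_HCC 2, MYC_Twist1_HCC 3, MYC_Twist1_HCC 4, MYC_Twist1_HCC 5, MYC_Twist1_OFF 1, MYC_Twist1_OFF 2 and MYC_Twist1_OFF 3 each ended the call (log2 fold change -0.70 to -0.54, adjusted p = 0.0594 to 0.157). All 3 rescalings ended the Psme4 call for MYC_Twist1_OFF as well (log2 fold change -0.35 to -0.21). Psme1 and Psme4 were called higher in MYC_Recur than in MYC_OFF, but under all 3 rescalings both calls ended. Their log2 fold changes were then 0.17 to 0.27 for Psme1 and 0.53 to 0.63 for Psme4. Left out singly, MYC_OFF 2, MYC_OFF 3, MYC_Recur 2 and MYC_Recur 3 each ended the Psme1 call. Psmf1, the inhibitor, was not called, with log2 fold changes of 0.01, 0.09 and 0.01 in the same 3 comparisons (adjusted p = 0.977, 0.793 and 0.977).

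Ratios within a library do not depend on how that library was scaled, except through the added 1. The log2 ratio of Psme1 to Psme2 was 0.72 ± 0.14 in MYC_Recur, -1.21 ± 0.25 in MYC_Twist1_OFF and -1.09 ± 0.46 in MYC_OFF (SD, n = 3 each), against 0.32 ± 0.32 in MYC_Twist1_HCC and 1.10 ± 0.16 in MYC_HCC (SD, n = 5 each). The OFF groups lay below all the others, and MYC_Twist1_HCC lay below MYC_HCC. Exact two-sided permutation tests gave p = 0.0357 for MYC_OFF against MYC_HCC (difference -2.20) and for MYC_Twist1_OFF against MYC_Twist1_HCC (-1.53), and p = 0.00794 for MYC_Twist1_HCC against MYC_HCC (-0.78), the smallest p that 5 against 5 allows. With 3 against 3 libraries the exact permutation test cannot go below p = 0.1, which is what MYC_Recur against MYC_OFF gave (1.82). None of the 24 ratio tests passed Benjamini-Hochberg adjustment (adjusted p = 0.143 for the smallest, by exact permutation).

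The log2 ratio of Psmb8 to Psmb5, the immunosubunit over the constitutive one, was -5.41 ± 0.47 in MYC_Recur, -2.11 ± 0.35 in MYC_Twist1_OFF and -2.04 ± 0.23 in MYC_OFF, against -3.79 ± 0.99 in MYC_Twist1_HCC and -4.30 ± 1.11 in MYC_HCC. All MYC_OFF libraries exceeded all MYC_HCC libraries, and MYC_Recur lay below MYC_OFF. The exact permutation p was 0.0357 for MYC_OFF against MYC_HCC (difference 2.26), 0.0714 for MYC_Twist1_OFF against MYC_Twist1_HCC (1.68) and 0.1 for MYC_Recur against MYC_OFF (-3.37). The ratio of Psmb10 to Psmb7 went the opposite way for MYC_OFF against MYC_HCC, at -1.45 ± 0.39 against -0.67 ± 0.28 (difference -0.78, exact permutation p = 0.0357), and Psmb9 to Psmb6 did not differ beyond the spread (0.30, exact permutation p = 0.75). Psmb9 did not exceed 0.74 in MYC_OFF, so the added 1 weighs on this last ratio and its sign is not read.

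**Figure D4:**
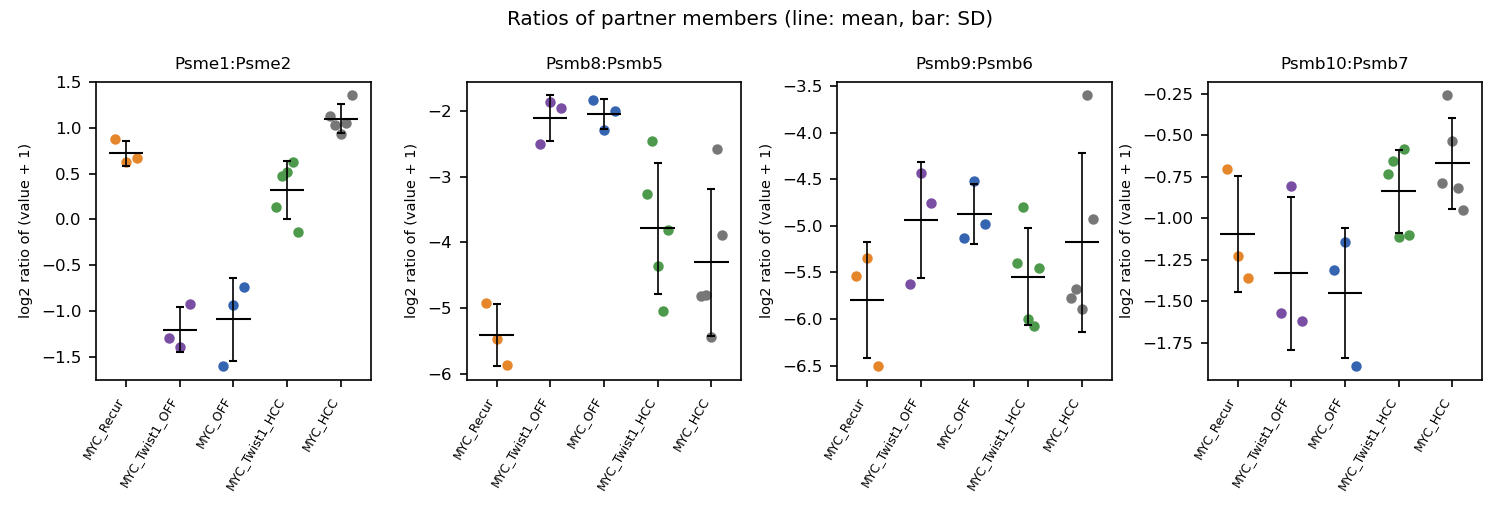
Log2 ratio of (value + 1) for 4 pairs of partner genes in each library of the 5 groups; points are libraries, lines are group means and bars are SD. The Psme1 to Psme2 ratio is below -0.7 in all OFF libraries and above -0.2 in all others.

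Upstream sequence was set beside these directions, since many members moved together. RefSeq's promoter table for GRCm38.p6 held a window for 41 of the 49 members, and the 250 bases before each RefSeq start were searched on both strands for 3 motifs. The MYC-type E-box CACGTG was in 4 of 41 members (9.76%) and in 6.04% of all 27025 windows. The CCAAT box (CCAAT) was in 15 of 41 (36.6%) and in 34.5% of all windows. The core of the antioxidant response element, TGACNNNGC, whose letters factors of the Nfe2l1 family recognise, was in 5 of 41 (12.2%) and in 10.1%. These shares are close to those of all genes. Windows of 2 genes lower in both OFF groups and 2 genes higher in MYC_OFF are printed below, 5′ to 3′ on the + strand, with matches in capitals.
The window of Psma4 (chr9:54950609-54950858), lower in OFF, holds the E-box CACGTG.
Psma4: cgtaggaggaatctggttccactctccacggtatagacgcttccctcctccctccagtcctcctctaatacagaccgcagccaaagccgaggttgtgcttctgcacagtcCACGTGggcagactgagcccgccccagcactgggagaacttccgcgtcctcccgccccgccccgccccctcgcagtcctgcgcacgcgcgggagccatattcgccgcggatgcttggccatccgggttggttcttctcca
The window of Psmd14 (chr2:61711444-61711693), also lower in OFF, holds 1 CCAAT box on the reverse strand (ATTGG).
Psmd14: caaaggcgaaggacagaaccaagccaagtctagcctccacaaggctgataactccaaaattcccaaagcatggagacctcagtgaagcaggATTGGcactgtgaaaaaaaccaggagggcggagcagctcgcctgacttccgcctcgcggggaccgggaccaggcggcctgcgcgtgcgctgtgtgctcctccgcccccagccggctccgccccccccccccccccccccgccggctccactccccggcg
The window of Psmd2 (chr16:20651402-20651651), higher in MYC_OFF, holds none of the 3 motifs. The windows of Psmd2 and Psma4 run into the gene spans given above, since the start that each window precedes lies inside its span.
Psmd2: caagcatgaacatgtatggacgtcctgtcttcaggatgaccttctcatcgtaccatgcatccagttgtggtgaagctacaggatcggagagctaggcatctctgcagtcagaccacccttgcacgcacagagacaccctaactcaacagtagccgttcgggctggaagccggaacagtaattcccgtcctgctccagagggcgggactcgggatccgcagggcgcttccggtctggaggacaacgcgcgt
The window of Psmb3 (chr11:97703184-97703433), higher in MYC_OFF, holds 2 CCAAT boxes.
Psmb3: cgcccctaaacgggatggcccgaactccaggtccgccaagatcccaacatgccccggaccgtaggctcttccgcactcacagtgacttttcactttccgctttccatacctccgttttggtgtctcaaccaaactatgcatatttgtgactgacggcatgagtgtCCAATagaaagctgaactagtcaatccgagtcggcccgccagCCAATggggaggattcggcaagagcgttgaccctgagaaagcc

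Summed over a class, the unequal changes of single genes partly cancelled. The 19 core genes summed to 2641 to 3438 in MYC_Recur, 1519 to 2341 in MYC_Twist1_OFF and 2069 to 2447 in MYC_OFF, against 2332 to 2941 in MYC_Twist1_HCC and 1961 to 3366 in MYC_HCC. The lid and base sums were 675.8, 1010 and 2157 in MYC_OFF against 904.9 to 1215 in MYC_HCC, and the highest of them, in MYC_OFF 3, rests on Psmd12 (42 to 936 across MYC_OFF) and Psmd2. All members together took 0.84% to 0.92% of the summed values in MYC_Recur, 0.58% to 0.72% in MYC_Twist1_OFF and 0.64% to 0.91% in MYC_OFF, against 0.80% to 0.94% in MYC_Twist1_HCC and 0.77% to 0.95% in MYC_HCC. By count of genes, for MYC_OFF against MYC_HCC, 9 of 19 core genes were lower and 5 higher, 4 of 6 ATPases were lower and 1 higher, 11 of 14 lid and base genes were lower and 1 higher, and 3 of 4 activators were lower and 1 higher, beside 39.4% lower and 18.9% higher of all genes. The median log2 fold changes were -0.52 for the core, -1.27 for the ATPases, -1.22 for lid and base and -1.37 for the activators, beside -0.38 for all genes. The 9 lower core genes include Psmb9 and the 5 higher include Psma8, whose calls are a description, as given above. Whether classes differ was not tested. Across the 49 members, Spearman's rho of the fold change with transcript length, GC content or the share of 50-base stretches held by other genes lay between -0.08 and 0.12 in the 3 comparisons, a description across genes of the same libraries.

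**Figure D5:**
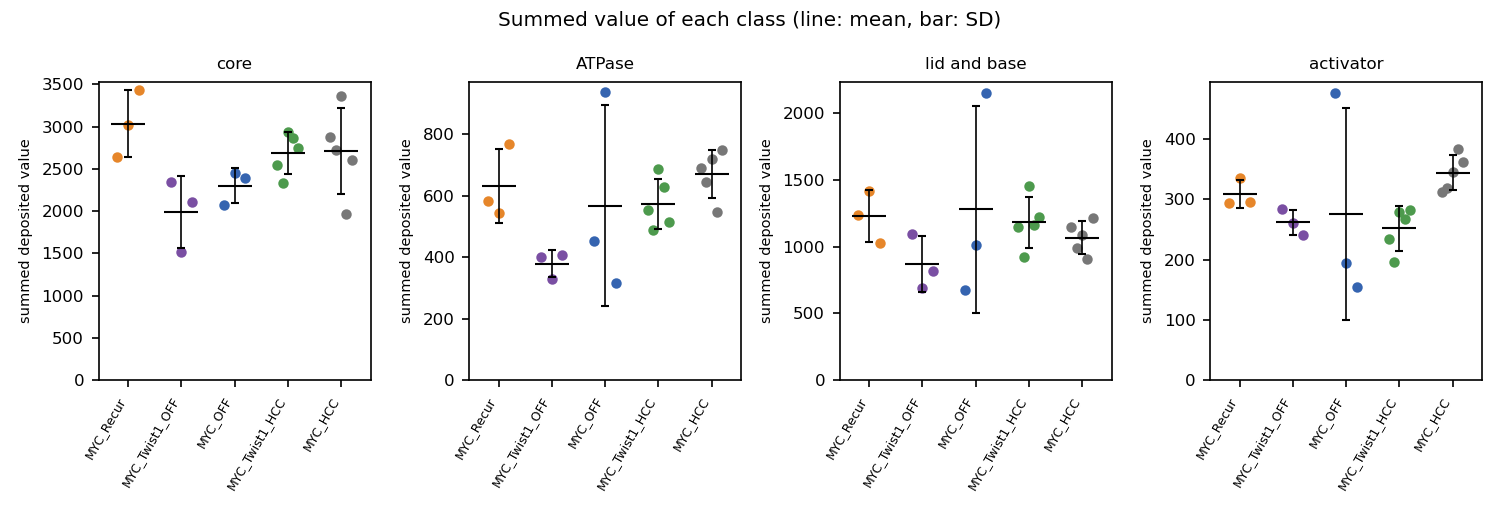
Summed deposited value of the core, ATPase, lid and base, and activator genes in each library of the 5 groups; points are libraries, lines are group means and bars are SD, and each axis starts at 0. MYC_OFF spans 675.8 to 2157 for lid and base, wider than any other group.

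Few members were called between MYC_Recur and MYC_HCC. Of the 49 members, 2 were called higher (Psma8 and Psmb1) and none lower, beside 6.90% and 3.93% of all genes tested. The Psma8 call is a description, as given above. At an unadjusted p under 0.05 there were 5 higher and 3 lower members, beside 2038 higher and 1261 lower of the 13253 genes. Under each of the 3 rescalings, and without MYC_HCC 4, the calls were 1 higher (Psma8) and 1 lower, Psmc4 (log2 fold change -0.81 to -0.72, against -0.66 and an adjusted p of 0.0582 as deposited). Psmb1, a beta subunit, had 259, 351 and 471 in MYC_Recur against 218, 200.1, 249.6, 159 and 163 in MYC_HCC, without overlap (log2 fold change 0.84, SE 0.25, adjusted p = 0.0365). That call ended under all 3 rescalings (log2 fold change 0.69 to 0.78) and without MYC_HCC 2 (0.85, adjusted p = 0.0538) or without MYC_HCC 4 (0.77, adjusted p = 0.0648) or without MYC_HCC 5 (0.77, adjusted p = 0.0839) or without MYC_Recur 2 (0.84, adjusted p = 0.103) or without MYC_Recur 3 (0.62, adjusted p = 0.193). The median log2 fold change was 0.02 over members and 0.08 over all genes. The catalytic Psmb5, Psmb6 and Psmb7 were at 0.84, 0.19 and 0.03, and the immunosubunits Psmb8, Psmb9 and Psmb10 at -0.27, -0.43 and -0.39 on the log2 scale, none of them called. The activators Psme1, Psme2, Psme3 and Psme4 were at -0.45, -0.07, 0.14 and -0.47, and the inhibitor Psmf1 at 0.02, also not called. Without MYC_HCC 4 and 5, 1 member was called.

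Within the HCC libraries, MYC_Twist1_HCC had 3 members higher and 6 lower than MYC_HCC, beside 3.20% and 3.23% of all genes. Library values lay apart for 2 higher and 7 lower members, beside 5.73% and 5.95% of all genes. The higher ones were Psma8, Psmb2 and Psmd2. The Psma8 call and its lack of overlap are a description, as given above. For Psmb2 the values were 271, 136, 342, 201 and 474 in MYC_Twist1_HCC against 143, 55.8, 108, 83.5 and 108 in MYC_HCC, which overlapped (log2 fold change 1.44, SE 0.38, adjusted p = 0.0296). Among the lower ones, Psma4 was -0.93 (adjusted p = 0.0287), Psmc5 -0.82 (adjusted p = 0.028) and Psmd11 -0.91 (adjusted p = 0.0112) in log2 fold change. The other lower members, Psmd9 at -1.13, Psme1 at -0.85 and Psme4 at -0.90, included 2 of 4 activators. Library values of Psma4, Psmc5, Psmd11, Psme1 and Psme4 did not overlap between the groups. Not called were the catalytic Psmb5, Psmb6 and Psmb7 (-0.12, -0.22 and -0.27), the immunosubunits Psmb8, Psmb9 and Psmb10 (0.40, -0.59 and -0.43), the activators Psme2 and Psme3 (-0.07 and -0.18) and the inhibitor Psmf1 (0.03).

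These calls rest on few libraries. The number called, 9 with all libraries, was 1 without MYC_Twist1_HCC 1, 2 without MYC_Twist1_HCC 5, 3 without MYC_HCC 5, 5 without MYC_Twist1_HCC 2 and 1 (lower) without MYC_HCC 4 and 5 together. Psmd11 kept its call whichever library was left out. For Psma4, left out singly, MYC_HCC 2, MYC_HCC 3, MYC_HCC 5, MYC_Twist1_HCC 1, MYC_Twist1_HCC 2 and MYC_Twist1_HCC 5 each ended the call (log2 fold change -0.91 to -0.76, adjusted p = 0.0543 to 0.0848). For Psmb2, left out singly, MYC_HCC 2, MYC_HCC 4, MYC_HCC 5, MYC_Twist1_HCC 1, MYC_Twist1_HCC 3 and MYC_Twist1_HCC 5 each ended the call (log2 fold change 1.23 to 1.49, adjusted p = 0.0522 to 0.0885). For Psmc5, left out singly, MYC_HCC 1, MYC_HCC 5, MYC_Twist1_HCC 1, MYC_Twist1_HCC 2 and MYC_Twist1_HCC 5 each ended the call (log2 fold change -0.81 to -0.72, adjusted p = 0.0634 to 0.0819). For Psmd9, left out singly, MYC_HCC 1, MYC_HCC 2, MYC_HCC 3, MYC_HCC 5, MYC_Twist1_HCC 1, MYC_Twist1_HCC 2, MYC_Twist1_HCC 3 and MYC_Twist1_HCC 5 each ended the call (log2 fold change -1.22 to -0.92, adjusted p = 0.0658 to 0.129). For Psme1, left out singly, MYC_HCC 3, MYC_HCC 4, MYC_HCC 5, MYC_Twist1_HCC 1, MYC_Twist1_HCC 2 and MYC_Twist1_HCC 5 each ended the call (log2 fold change -0.88 to -0.73, adjusted p = 0.0571 to 0.0837). For Psme4, left out singly, MYC_HCC 1, MYC_HCC 5, MYC_Twist1_HCC 1, MYC_Twist1_HCC 3 and MYC_Twist1_HCC 5 each ended the call (log2 fold change -0.88 to -0.82, adjusted p = 0.0511 to 0.0666).

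Between the OFF groups, no member was called for MYC_Twist1_OFF against MYC_OFF by limma, and 1 of all genes was (0.00755%). At an unadjusted p under 0.05, 1 member was lower (Psmc3, at -0.73) and none was higher, beside 163 lower and 167 higher of the 13253 genes. The catalytic Psmb5, Psmb6 and Psmb7 were at -0.10, 0.12 and 0.06, and the immunosubunits Psmb8, Psmb9 and Psmb10 at -0.16, 0.06 and 0.18. The interaction, which sets MYC_Twist1_OFF minus MYC_Twist1_HCC against MYC_OFF minus MYC_HCC, called none of the 49 members and 0.0981% of all genes. Unadjusted, 6 members were higher and 5 lower, beside 518 higher and 515 lower of the 13253 genes. The extremes were Psmd2 (log2 fold change -1.93, SE 0.60, adjusted p = 0.46) and Psma6 (log2 fold change 1.09, SE 0.52, adjusted p = 0.637).

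Genes that work with the proteasome were read from 4 further lists. Of 21 assembly, shuttling and transcription partners tested, 12 were lower and 2 higher in MYC_OFF than in MYC_HCC, 12 were lower and 1 higher in MYC_Twist1_OFF than in MYC_Twist1_HCC, and 10 were higher and 1 lower in MYC_Recur than in MYC_OFF, with medians of -0.69, -0.71 and 0.70. Over all genes the shares were 39.4% lower and 18.9% higher, 33.5% lower and 13.1% higher, and 37.5% higher and 12.0% lower. The medians of all genes were -0.38, -0.32 and 0.45. Nfe2l1, the transcription factor of subunit genes, was 28.5, 25.2 and 50.2 in MYC_Recur, 3.06, 2.03 and 1.87 in MYC_Twist1_OFF and 4.97, 3.42 and 2.68 in MYC_OFF, against 18.4, 22.8, 19.3, 21.3 and 9.65 in MYC_Twist1_HCC and 29.1, 37.2, 33.2, 30 and 31.2 in MYC_HCC. Its OFF libraries lay below all others (log2 fold change -2.85, SE 0.27, adjusted p = 2.23e-07 for MYC_OFF against MYC_HCC, log2 fold change -2.50, SE 0.27, adjusted p = 2.18e-06 for MYC_Twist1_OFF against MYC_Twist1_HCC and log2 fold change 2.89, SE 0.30, adjusted p = 1.66e-06 for MYC_Recur against MYC_OFF). The shuttle factor Ubqln1 averaged 16.7 ± 5.02 in MYC_OFF and 74.8 ± 5.16 in MYC_HCC (log2 fold change -2.14, SE 0.22, adjusted p = 4.74e-07), and Txnl1, a thioredoxin-like protein bound to the lid, 29.2 ± 7.1 in MYC_OFF and 92.1 ± 11.9 in MYC_HCC (log2 fold change -1.64, SE 0.18, adjusted p = 1.11e-06).

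Chosen after its values were seen, the gene listed as SHFM1 (Sem1, the smallest lid subunit) was called opposite to the 7 called lid genes. SHFM1 averaged 91 ± 62.2 in MYC_Recur and 915 ± 308 in MYC_OFF (SD, n = 3 each), against 201 ± 63.8 in MYC_HCC (SD, n = 5). It was higher in MYC_OFF than in MYC_HCC (log2 fold change 2.17, SE 0.45, adjusted p = 0.000501), fell in MYC_Recur relative to MYC_OFF (log2 fold change -3.56, SE 0.50, adjusted p = 2e-05) and was higher in MYC_Twist1_HCC than in MYC_HCC (log2 fold change 1.43, SE 0.39, adjusted p = 0.0363). Zfand2a, a proteasome-binding zinc finger gene chosen likewise, was the other partner higher in MYC_OFF (log2 fold change 1.16, SE 0.31, adjusted p = 0.00409). Pomp, the chaperone of beta-ring assembly and also chosen after its values were seen, was lower in MYC_OFF, at 61.5, 35.2 and 38.5, than in MYC_HCC, at 147, 163, 199, 138 and 157, without overlap (log2 fold change -1.84, SE 0.23, adjusted p = 3.47e-06).

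Ubiquitin genes and the enzymes that load ubiquitin gave 11 of 14 lower and none higher in each OFF comparison, and 10 of 14 higher and none lower for MYC_Recur against MYC_OFF. Their median log2 fold changes were -1.46 for MYC_OFF, -1.03 for MYC_Twist1_OFF and 1.37 for MYC_Recur. Ube2s, which extends ubiquitin chains on cell cycle substrates, averaged 43.4 ± 32.6 in MYC_OFF and 233 ± 80.7 in MYC_HCC (log2 fold change -2.55, SE 0.38, adjusted p = 2.12e-05). The conjugating enzymes Ube2d2a (log2 fold change -1.62, SE 0.21, adjusted p = 3.74e-06) and Ube2k (log2 fold change -1.81, SE 0.25, adjusted p = 1.01e-05) were lower too. Of 11 genes of the p97 unfoldase, which extracts substrates ahead of the proteasome, 4 were lower and 1 higher in MYC_OFF than in MYC_HCC, 5 lower and 1 higher in MYC_Twist1_OFF than in MYC_Twist1_HCC, and 8 higher and none lower in MYC_Recur than in MYC_OFF, with medians of -0.44, -0.50 and 0.94. Over all genes those shares were 39.4% lower and 18.9% higher, 33.5% lower and 13.1% higher, and 37.5% higher and 12.0% lower, with medians of -0.38, -0.32 and 0.45, so the p97 list lay near the background in the first of the 3 comparisons. Vcp, p97 itself, averaged 17.8 ± 12 in MYC_OFF and 184 ± 44 in MYC_HCC (log2 fold change -3.53, SE 0.57, adjusted p = 4.44e-05), Derl2 was at -1.14 and Plaa at -0.76 in log2 fold change. The 1 higher gene, Ubxn1, a p97 cofactor chosen after its values were seen, was at log2 fold change 1.51, SE 0.41, adjusted p = 0.00442.

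Of 7 class I antigen processing genes tested, which handle the peptides that immunosubunits make, 4 were lower and none higher in each OFF comparison, and 4 were higher and none lower in MYC_Recur than in MYC_OFF, with medians of -0.98, -0.90 and 0.90. Over all genes the shares were 39.4% lower and 18.9% higher, 33.5% lower and 13.1% higher, and 37.5% higher and 12.0% lower. The medians of all genes were -0.38, -0.32 and 0.45. B2m, the light chain of class I molecules, had 412, 320.5 and 592 in MYC_Recur, 112, 129 and 128 in MYC_Twist1_OFF and 189, 98 and 77.5 in MYC_OFF, against 283, 248, 274, 439.5 and 228 in MYC_Twist1_HCC and 554, 500.4, 443, 1198 and 747 in MYC_HCC. The OFF libraries lay below all others (log2 fold change -2.50, SE 0.33, adjusted p = 6.16e-06 for MYC_OFF against MYC_HCC). Tapbp, which loads peptides, was lower as well (log2 fold change -1.43, SE 0.26, adjusted p = 0.000136), and Psmb8 was higher in the same libraries.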

How the data were processed

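RNA-seq of 19 mouse liver tumor samples was used. Per the submitters' processing notes, reads were handled with Trimmomatic, STAR, Picard, featureCounts and DESeq2 on mm10; which step made the table is not given in the sources used here. Values are the signal per gene that the authors deposited with 2 decimals, by a formula that is not given; they are not counts, so depth and intervals that need it cannot be given, and precision is read from the spread between libraries. Of 19511 rows, 25 whose symbol was a bare number were left out; 18142 of the rest matched mouse names. Genes with a value of at least 1 in at least 3 libraries were tested (13253).

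limma 3.58.1 in R 4.3.3 was fitted to log2(value + 1) with 5 group means and a trend in the variance (14 residual degrees of freedom); the added 1 understates fold changes of low genes. P-values were adjusted by Benjamini-Hochberg over all genes for each comparison, and a gene was called at an adjusted p under 0.05. Ratios were compared by exact permutation (scipy 1.17.1) over libraries. The members, lists and comparisons were chosen with earlier results of these data known. By rule, the genes named were, per comparison, up to 8 called members with the largest fold changes and no overlap, the catalytic subunits, immunosubunits, activators and inhibitor, up to 5 members against the main direction and, of each further list, the 3 with the smallest p for MYC_OFF against MYC_HCC; the other members are given so that all are accounted for, and 1 list gene that the rule named is not reported here. Alternatives were other pseudocounts (0.1 and 5), filters, 3 rescalings, no trend, only the groups compared, single libraries left out, MYC_HCC 4 and 5 left out together (added after the data were seen) and a replicate block. The test was checked on simulated data. Promoter windows, gene names and gene spans come from RefSeq, on the GRCm38 assembly.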

Additional observations from a re-analysis of the deposited data

Results flagged for a closer look

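In 6 of 98 sets of 5 libraries (each member in each HCC group), the highest or lowest library lay far from the other 4, with a gap of more than 0.71 of the whole range (Dixon's critical value); chance alone gives about 1 in 20 such sets. In MYC_Twist1_HCC 5, Psmd10 stood at 18.62 against 12.85 to 14.47 in the other 4 libraries, and Psmd6 at 40.48 against 97.27 to 117.11. In MYC_Twist1_HCC 2, Psmb9 stood at 2.48 against 1.18 to 1.5. In MYC_HCC 4, Psmd7 was at 140.5 against 228.6 to 261.7 and Psmg4 at 24.22 against 48.71 to 52.63. In MYC_HCC 3, Psmd11 was at 47.53 against 56.33 to 58.72. Groups of 3 libraries are too small for this test.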

How the results depend on the processing

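Pseudocount, filter and trend changed no direction: 339 gene results were the same with a pseudocount of 0.1, 338 with 5, 337 without a filter and 341 without a trend. The rescalings turned 7 results: Psmd4 for MYC_OFF against MYC_HCC to 0.027 (median of ratios) and 0.093 (upper quartile), Psmc3ip there to 0.066 and 0.13, Psmd10 there to 0.0060 (upper quartile), and Psmd10 for MYC_Recur against MYC_OFF to -0.069 (median of ratios) and -0.076 (upper quartile). All 7 are shifts that the rescaling applies to every gene. Members called higher and lower for MYC_OFF against MYC_HCC were 10 and 23, 10 and 25, and 12 and 22 under the 3 rescalings.

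With single libraries left out, the members called numbered 34 to 39 for MYC_OFF against MYC_HCC, 21 to 26 for MYC_Twist1_OFF against its HCC group, 32 to 37 for MYC_Recur against MYC_OFF (1 to 3 against MYC_HCC), 1 to 11 for MYC_Twist1_HCC against MYC_HCC, and 0 for MYC_Twist1_OFF against MYC_OFF and for the interaction. Fitting only the groups compared left 1 member for MYC_Recur against MYC_HCC, and leaving out MYC_HCC 4 and 5 together left 1 for that comparison and 1 for MYC_Twist1_HCC against MYC_HCC; both fits hold fewer samples.

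The numbers were not taken to pair the samples, since in no comparison did every same-numbered pair correlate above 0.1 in its deviations from the group means (-0.17 to 0.38). With the replicate number as a block, 36 members were called for MYC_OFF against MYC_HCC, 26 for MYC_Twist1_OFF against its HCC group, 34 for MYC_Recur against MYC_OFF, 1 when MYC_HCC replaced MYC_OFF there and 9 for MYC_Twist1_HCC against MYC_HCC. Without counts, what depth limits cannot be stated.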
